A study of Arabidopsis thaliana with 2 samples.

Results

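The regions described here are stretches of the Arabidopsis thaliana genome that were called as bound by CCA1 on both of 2 sequencers and that lie inside a protein-coding gene. They were chosen from the peak calls themselves: peaks of the IonPGM and the Illumina list that overlap by at least 1 bp on chromosomes 1 to 5 give a shared segment, the stretch common to both. A segment was kept when its midpoint fell within a protein-coding gene and more than 200 bp from either end of it. This left 303 of 1499 shared segments (20.2%, 95% exact binomial interval 18.2 to 22.3%), in 287 of 27444 protein-coding genes (1.05%; 1.08% of the genes long enough to hold one, over 400 bp). Because position and overlap made the choice, and the scores come from the same peak calls, the values below are descriptions and carry no test.

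Chromatin came from whole 14-day seedlings of the Col-0 accession, cca1 lhy double mutants that express CCA1-FLAG from the CCA1 promoter. Both libraries shared this genotype (CCA1pro:CCA1-FLAG cca1 lhy), so the native CCA1 and LHY genes were mutated throughout. Growth was at 22 °C with 2% sucrose in 12 h of light and 12 h of dark, without further treatment, and fixation fell 1 h after lights on. An anti-FLAG antibody recovered the DNA, and 1 library was read on an IonPGM and 1 on an Illumina GAII, each prepared with its own kit. Whether the same recovered DNA served both is not stated in the labels. The kit and the sequencer cannot be told apart, read depth is unknown, and no replicate error exists for any value.

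CCA1 and its close relative LHY are MYB-type transcription factors that accumulate around dawn and repress evening-expressed genes of the circadian clock. Their known sites, the evening element among them, are mostly described in promoters. A peak within a gene can lie in an exon, an intron or an untranslated part, or at the promoter of a nested or neighbouring gene. The gene table used here gives neither strand nor exons, so distances are given to the nearest end of the gene, whichever end that is.

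The IonPGM list held 2848 nuclear peaks and the Illumina list 2888. Each peak carries a score of unstated scale, which is the authors' own value and is used here only as a percentile within its list, from 0 for the lowest to 100 for the highest. Most members were clear of the ends of their gene: in 283 of 303 (93.4%) both peaks lay wholly within it, while 9 IonPGM and 13 Illumina peaks reached across an end. Members made up between 18.9% of the shared segments on chromosome 3 and 21.2% of those on chromosome 1, and 5 members lay in gene-poor bins. The members nearest to the 200 bp limit lay in CRB (202 bp, IonPGM percentile 21.5, Illumina percentile 2.45), UGT85A5 (203 bp, 70.1 and 55.8) and AT2G45300 (204 bp, 42.1 and 68.1). The closest segments left out lay in ERF6 (200 bp, 6.91 and 67.0), AT5G59950 (199 bp, 41.6 and 59.3) and SMO2-1 (196 bp, 53.0 and 81.1).

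The shared segments inside genes ranked higher in the IonPGM than in the Illumina list. Their median score percentile was 66.5 in the IonPGM list (quartiles 34.7 and 86.3) and 49.0 in the Illumina list (quartiles 21.0 and 79.9). The IonPGM percentile was the higher one in 172 of 303 members (56.8%), against 46.6% of all shared segments. For the 939 shared segments at gene ends, whose midpoint lay between 1000 bp outside and 200 bp inside an end, the medians were 62.5 and 68.6. The members thus stood close to the end segments in the IonPGM list and lower in the Illumina list. Both percentiles exceeded 50 in 110 members (36.3%), against 47.8% of all shared segments, and in 82 members only the IonPGM percentile did. Across the 303 members IonPGM and Illumina percentiles had a Spearman rho of 0.33, against 0.53 across the 939 end segments. The points of each correlation share their libraries and the peak caller.

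**Figure D1:**
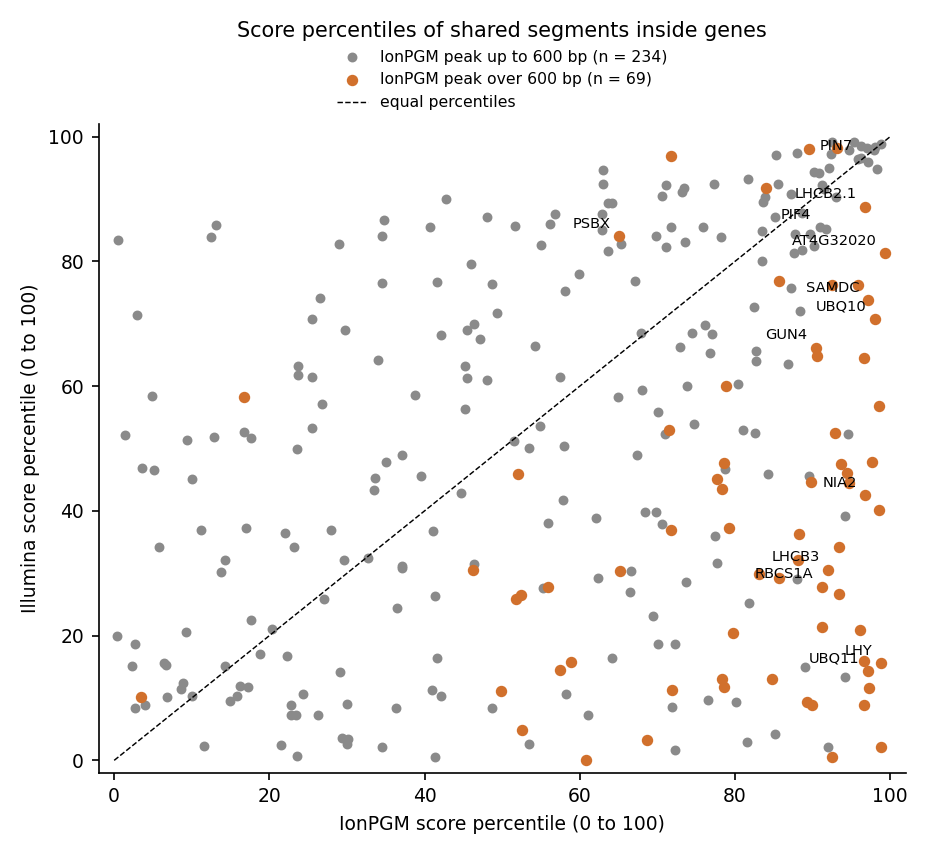
Score percentile in the IonPGM list (x axis, 0 to 100) against that in the Illumina list (y axis, 0 to 100), 1 point per shared segment inside a gene, with the dashed line marking equal percentiles. Orange points are the 69 members whose IonPGM peak is wider than 600 bp, and 62 of them lie below the line.

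The 12 members with the highest mean of both percentiles had peaks of 312 to 565 bp. Ranking by that mean selects members that are high in both lists, so their likeness in rank is no result. The member with the highest mean percentile lay in SMT1 (AT5G13710), a sterol methyltransferase gene, at chr5:4423648-4423999 on TAIR10. Its percentiles were 98.9 (IonPGM) and 98.8 (Illumina), and its peaks were 352 and 395 bp wide. It lay 268 bp from an end of SMT1 and also within the end window of PAO1, a polyamine oxidase gene, so the gene it belongs to is not settled by position.

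The next members by mean percentile lay in AT4G16880 (chr4:9496202-9496499, IonPGM percentile 98.0, Illumina percentile 98.3) and in EXO70H7, an exocyst subunit gene (chr5:24063988-24064321, 97.9 and 97.9). Both also fell in the end window of a neighbour, RPP4, a disease resistance gene, and HSP18.2, a small heat shock protein gene. AT1G73470, AT5G44060, AT1G01310 and AT1G07050 had neighbours placed in the same way. In total 7 of the 12 highest members lay at the end of another protein-coding gene.

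The other 5 of these 12 had no such neighbour. PIN7 (AT1G23080), which encodes an auxin efflux carrier, held its segment 1289 bp from the nearest end, at chr1:8181323-8181633. Its percentiles were 96.3 (IonPGM) and 96.5 (Illumina), and its peaks were 343 and 312 bp wide. IDD5 (AT2G02070), a zinc finger gene of the INDETERMINATE DOMAIN family, held one 862 bp from an end at chr2:509746-510092, with percentiles of 94.7 and 97.9. These were the farthest of the 12, in bp, from an end of their gene.

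AT5G53500 (chr5:21725702-21726080), AT1G56220 (chr1:21043012-21043416) and AT2G45590 (chr2:18786235-18786672) completed the set, 450, 263 and 463 bp from an end. Their IonPGM percentiles were 97.0, 96.2 and 98.3, and their Illumina percentiles were 98.1, 98.4 and 94.8. Over all 303 members, 20 had both percentiles above 90 (6.60%, against 8.14% of all shared segments), a share near the background. Their median widths were 401.5 bp (IonPGM) and 435.5 bp (Illumina), above the 334 and 321 bp of all members, and 1 of the 20 had an IonPGM peak wider than 600 bp.

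Some members had a much wider IonPGM peak. The IonPGM peak exceeded 600 bp in 69 of 303 members (22.8%), against 5.80% of all shared segments, while the Illumina peak did so in 17. The 303 members came from 295 distinct IonPGM peaks, since 8 of these lay in 2 or more members. All 8 were wider than 600 bp, so the 69 members and their values count these peaks more than once. The narrowest peaks behind members were 184 bp (IonPGM) and 220 bp (Illumina). Of the 939 end segments 15 had an IonPGM peak over 600 bp. The upper quartile of IonPGM peak width was 537.5 bp in the members and 334 bp at gene ends. In the 582 IonPGM peaks inside genes without an Illumina partner it was 402.25 bp, and the widest reached 1646 bp. Wide IonPGM peaks were thus found in that class too. Median IonPGM peak width was 334 bp in the members and 271 bp at gene ends, and median Illumina peak width was 321 and 304 bp. The difference between the classes was thus larger in the IonPGM than in the Illumina list. Within a member the IonPGM peak was the wider one in 146 of 303 (48.2%), against 34.0% of all shared segments.

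**Figure D2:**
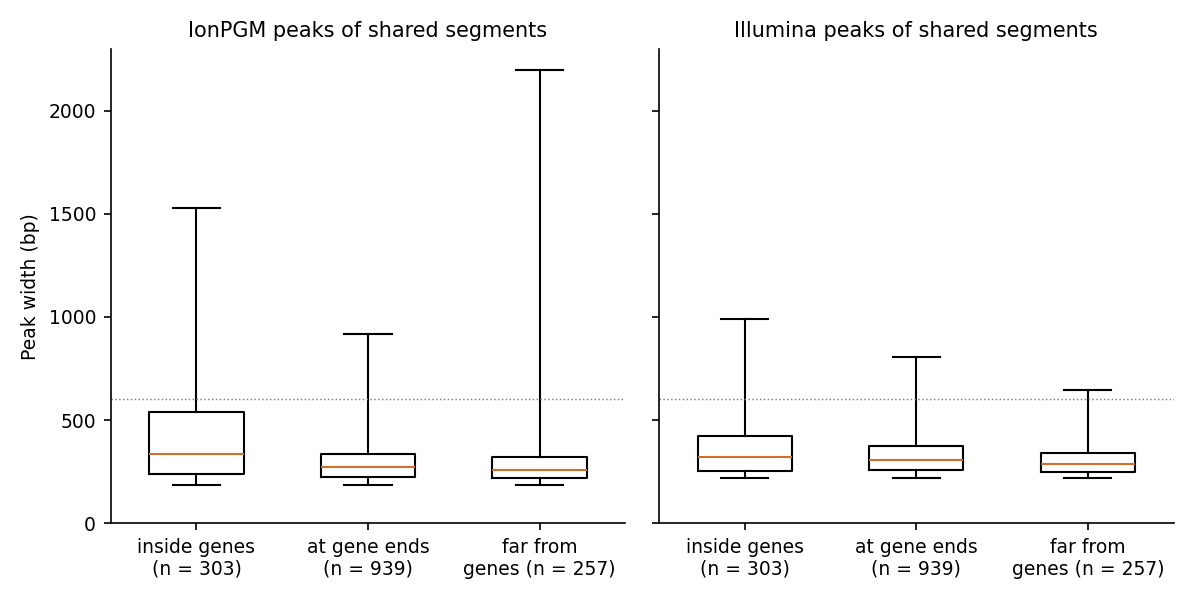
Peak width in bp (y axis) of the IonPGM peaks (left) and the Illumina peaks (right) behind shared segments inside genes, at gene ends and far from coding genes. Boxes span the quartiles around the median, whiskers reach the lowest and highest value, and the dotted line marks 600 bp. The upper quartile of IonPGM widths is 537.5 bp inside genes and 334 bp at gene ends.

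The wide members ranked high by IonPGM score and low by Illumina score. The 69 members with an IonPGM peak over 600 bp had median percentiles of 89.3 (IonPGM) and 34.2 (Illumina), and the IonPGM percentile was higher in 62 of them. In the other 234 members the medians were 56.5 and 53.4, and the IonPGM percentile was higher in 110. The 15 end segments with an IonPGM peak over 600 bp had medians of 68.6 and 70.0. High IonPGM with low Illumina percentiles therefore went with width inside genes, while these 15 end segments did not show it.

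By width of the IonPGM peak, the median IonPGM percentile was 42.4 up to 300 bp (n = 130), 73.7 from there to 600 bp (n = 104), 84.9 to 900 bp (n = 36) and 91.2 above 900 bp (n = 33). The median Illumina percentile in the same classes was 49.98, 60.6, 31.3 and 36.9. Width and score come from the same peak call and are not independent: across members their Spearman rho was 0.58 for IonPGM and 0.46 for Illumina. The genes of the wide members were shorter, with a median length of 1705 bp in 60 genes against 2537 bp in the 229 genes of the others. Over all 287 genes the peaks touching a gene covered more than 50% of it in 40 cases for IonPGM and in 11 for Illumina.

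The smaller of the overlap shares of the 2 peaks had a median of 40.5% in the wide members and 71.2% in the other 234. This share cannot exceed the ratio of the peak widths, so a lower value follows in part from choosing wide IonPGM peaks. Peak centres were a median of 167 bp apart in the former and 48.0 bp in the latter, against 32.5 bp at gene ends. The widest stretch of all was 951 bp in LHCB3 (AT5G54270), of the photosystem II antenna, where a peak of 1529 bp (IonPGM percentile 92.0) met one of 992 bp (Illumina percentile 30.6). The next were 766 bp in AT4G32020, with percentiles of 99.4 and 81.3, and 744 bp in LHCA4, of the photosystem I antenna, with 78.6 and 47.6.

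Genes of the photosynthetic apparatus held such segments in a larger share than any other of the 17 lists examined. A shared segment lay inside 18 of 42 genes for light harvesting and photosystem subunits (42.9%), against 1.05% of all protein-coding genes. These proteins bind the chlorophyll that gathers light or hold the reaction centres together. Taken singly, IonPGM peaks were centred inside 28 of the 42 genes and Illumina peaks inside 17, against 2.96% and 1.88% of all genes. Such single-list peaks lay inside 12 (IonPGM) and 6 (Illumina) of 20 Calvin cycle genes, 6 and 1 of 9 methionine genes, and 9 and 2 of 24 phenylpropanoid genes. In each of the other 13 lists at most 6 genes held an IonPGM and at most 3 an Illumina peak. IonPGM peaks inside genes were thus also frequent in lists with few shared segments.

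The 18 genes spread over both photosystems. They included 8 of 14 LHCB genes of the photosystem II antenna, 2 of 6 LHCA genes of the photosystem I antenna, 5 of 12 photosystem I subunit genes and 3 of 10 photosystem II subunit genes. Their 22 segments had median percentiles of 78.6 (IonPGM) and 32.4 (Illumina), with median peak widths of 743.5 and 302 bp, and the IonPGM percentile was higher in 17. Some members went the other way: PSAF, of the plastocyanin docking site, had one segment at 63.6 (IonPGM) and 89.3 (Illumina), and PSBX, a small photosystem II subunit, had one at 65.0 and 84.1.

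LHCB2.1 (AT2G05100, chr2:1824012-1824339) had the highest mean percentile of this list, 96.7 (IonPGM) and 88.8 (Illumina). Its Illumina peak reached across an end of the gene and was not centred more than 200 bp inside it. The centres of its 2 peaks were 538 bp apart. CAB1 (AT1G29930, also LHCB1.3) held one segment at 92.5 and 76.2 and a further one at 92.5 and 0.474 under the same IonPGM peak. LHB1B2 (AT2G34420, also LHCB1.5) stood at 97.3 (IonPGM) and 11.6 (Illumina), among the 5 largest differences of all members. The LHCB1 and LHCB2 genes are near-identical copies whose reads may have been placed on any of them, so the assignment to a single copy is uncertain.

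The remaining members of the list were spread widely in the IonPGM list. In the antenna, LHCB2.3 stood at 93.7 (IonPGM) and 47.5 (Illumina), LHCB4.2 at 22.3 and 16.7, and LHCA1 at 60.8 and 0.102. Among photosystem I subunits, PSAD-1, of the ferredoxin docking site, stood at 78.7 and 46.7, PSAL at 68.5 and 39.8, PSAG at 22.0 and 36.5, and PSAE-1 at 17.7 and 22.5. In photosystem II, PSBY stood at 85.2 and 4.23, and PSBP-1, of the oxygen-evolving complex, at 52.0 and 46.0. High IonPGM percentiles were therefore common but not general in these genes. None of these 9 had an Illumina percentile above 50. The genes of the list with the highest mean percentiles had been set apart above, so this is no result. Those were LHCB2.1, CAB1, PSAF and PSBX, with Illumina percentiles of 88.8, 76.2, 89.3 and 84.1.

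The Calvin cycle list, whose enzymes fix carbon dioxide, had 5 of 20 genes with a segment inside (25%, against 1.05% of all genes). Their 6 segments had medians of 81.5 (IonPGM) and 24.6 (Illumina), with the IonPGM percentile higher in 5. RCA, the activase of Rubisco, stood at 97.7 and 47.8, and GAPA, a plastid glyceraldehyde phosphate dehydrogenase gene, at 71.7 and 36.9. GAPA-2 was low in both lists, at 14.9 and 9.50. RBCS1A, a Rubisco small subunit gene, had 2 segments under one IonPGM peak of 1246 bp at percentile 91.2, and their Illumina percentiles were 27.8 and 21.4.

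Wide IonPGM peaks were not limited to photosynthesis genes. Without the light harvesting and Calvin cycle lists, 50 of 275 members (18.2%) still had an IonPGM peak over 600 bp, with median percentiles of 88.2 (IonPGM) and 36.8 (Illumina). The cytoskeleton and housekeeping list has no stated link to CCA1. A segment lay inside 3 of its 25 genes (12.0%, against 1.05% of all genes). Among them the polyubiquitin genes UBQ10 (98.0 and 70.8, IonPGM peak 1410 bp) and UBQ11 (97.2 and 14.4, 849 bp) had wide IonPGM peaks. TUB5, a beta-tubulin gene, did not, with percentiles of 81.7 and 93.2 and an IonPGM peak of 338 bp. The polyubiquitin genes and the Rubisco small subunit genes have near-identical copies that may share reads, so their assignment is uncertain as well. Expression of these genes was not measured in these libraries, and its part in the result was not tested.

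**Figure D3:**
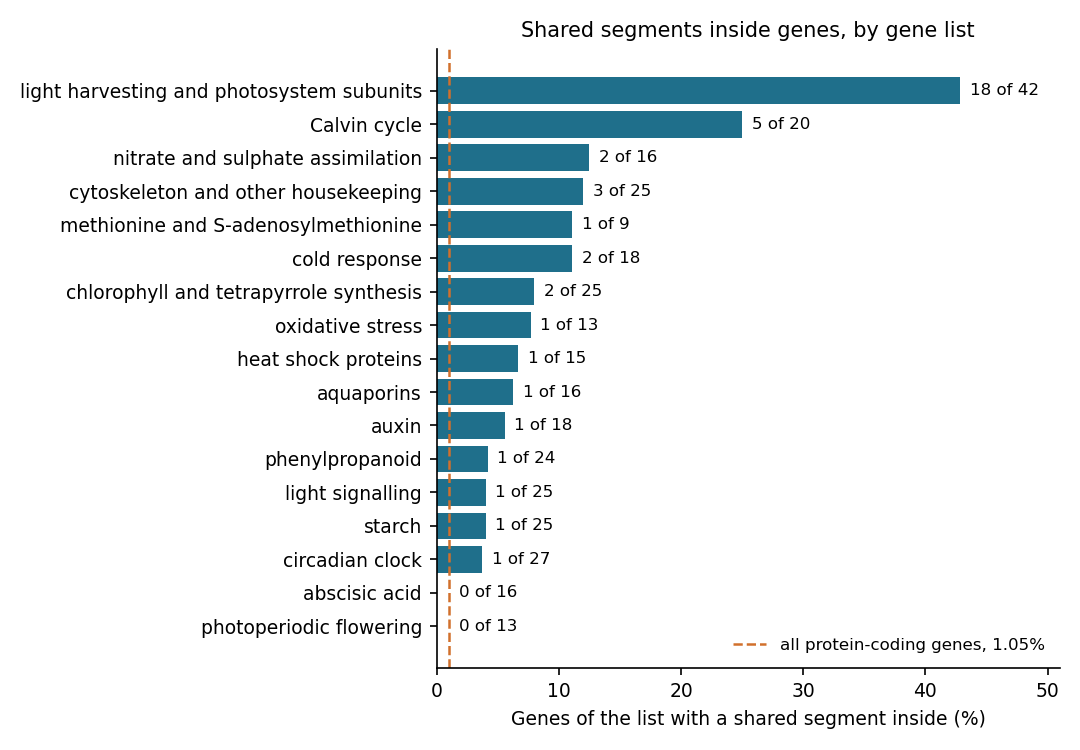
Share of the genes in each of 17 lists that hold a shared segment inside the gene (x axis, percent), with the number of genes beside each bar. The dashed line marks all protein-coding genes at 1.05%, and the light harvesting and photosystem list stands at 42.9%.

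The nitrate and sulphate assimilation list had 2 of 16 genes with a segment inside (12.5%, against 1.05% of all genes). Both were nitrate reductases. NIA1 (AT1G77760) held one segment at 76.8 (IonPGM) and 65.3 (Illumina). NIA2 (AT1G37130) held a pair, one at chr1:14159021-14159466 with percentiles of 96.8 and 42.5 and one at chr1:14161487-14161659 with 52.5 and 26.6. The IonPGM peaks of NIA2, 988 and 1363 bp wide, covered 67.4% of the gene and its Illumina peaks 19.6%.

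Of the circadian clock genes, the best known targets of CCA1, 1 of 27 (3.70%) held a shared segment inside, against 1.05% of all genes. A segment was centred at an end of 14 of 27 (51.9%), against 4.82% of all genes. The clock gene with a segment inside was LHY (AT1G01060), with 3 segments. An IonPGM peak of 1519 bp at chr1:34055-35573 stood at percentile 98.8, and the Illumina peaks it met, 598 and 421 bp wide, at 15.6 and 2.13. A separate IonPGM peak of 234 bp at chr1:35743-35976, at percentile 34.5, met the 421 bp Illumina peak as well. The long IonPGM peak thus ranked high while the other 3 peaks stood at 34.5 or below in their lists, and no shared segment was centred at an end of LHY.

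Of 18 cold response genes 2 held a segment inside (11.1%, against 1.05% of all genes) and 9 one at an end (50%, against 4.82%). COR15B, a chloroplast protein gene of cold acclimation, stood at 87.2 (IonPGM) and 90.9 (Illumina), in the end windows of its tandem neighbour COR15A and of AT2G42520. STZ (AT1G27730, also ZAT10), a zinc finger repressor gene of stress responses, had a pair of segments under one IonPGM peak at 96.7, with Illumina percentiles of 15.9 and 8.80. Of 25 starch genes 1 held a segment inside (4%) and 8 one at an end (32%). The gene with a segment inside was SEX1, also GWD1, a glucan water dikinase gene of starch breakdown, at 82.5 and 72.7. The Illumina peak at SEX1 reached across an end of the gene and was not centred more than 200 bp inside it.

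In the remaining lists at most 2 genes held a segment inside. Over all protein-coding genes the share was 1.05%. The chlorophyll and tetrapyrrole list had 2 of 25: GUN4, a regulator of magnesium chelatase, at 90.4 (IonPGM) and 66.2 (Illumina), and CRD1, a cyclase subunit gene, at 25.5 and 53.2. The Illumina peak at GUN4 reached across an end of the gene. Light signalling had 1 of 25, PIF4, a growth-promoting bHLH factor gene, at 90.9 and 85.5. Auxin had 1 of 18 (PIN7, above) and phenylpropanoid genes 1 of 24, PAP1, a MYB activator of anthocyanin synthesis, at 20.4 and 21.1.

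Oxidative stress genes had 1 of 13 (APX1, an ascorbate peroxidase gene, 65.1 and 30.4) and heat shock genes 1 of 15 (HSP81-2, an HSP90 gene, 12.9 and 51.9). The methionine list had 1 of 9, ATMS1, a methionine synthase gene, at 75.9 and 85.5. Aquaporins had 1 of 16, PIP1;4, at 26.8 and 57.2. Photoperiodic flowering (0 of 13) and abscisic acid genes (0 of 16) held none. With lists of this size, a count of 1 gene cannot be read against a background of 1.05%.

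In 15 genes (5.23% of 287) more than 1 member was found, 31 members in all. In 8 of them one IonPGM peak met more than 1 Illumina peak: LHY, STZ, CAB1, LHCB2.2, RBCS1A, LHCA4, MYC2 and HSPRO2. HSPRO2, a gene of basal disease resistance, had an IonPGM peak of 1176 bp at 98.6 over Illumina peaks at 56.9 and 40.2. MYC2, the bHLH factor gene of jasmonate responses, had one of 1012 bp at 78.4 over Illumina peaks at 43.5 and 13.0, the former touching it by only 2 bp. LHCB2.2 had one of 906 bp at 93.4 over Illumina peaks at 34.2 and 26.6. In these genes 1 long IonPGM call corresponded to separate, lower-ranked Illumina calls.

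**Figure D4:**
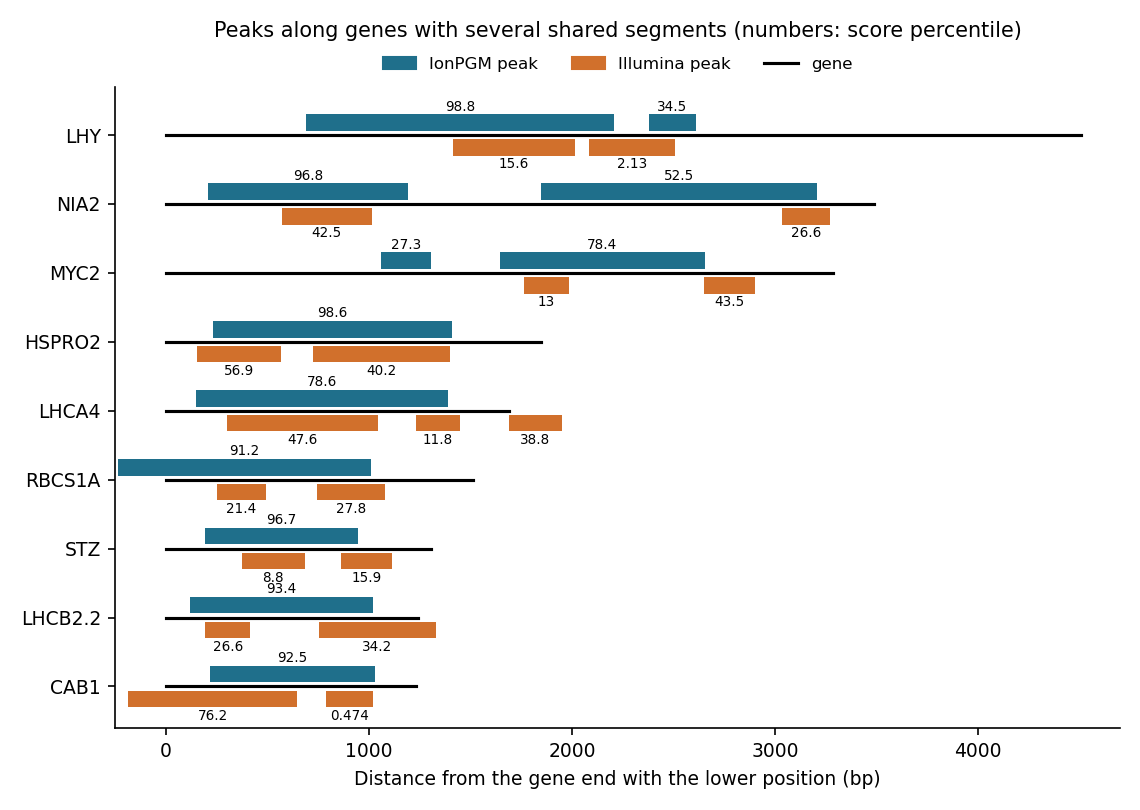
Peaks along 9 genes with more than 1 shared segment, as distance in bp from the gene end with the lower position (x axis). The black line is the gene, bars above it are IonPGM peaks and bars below it Illumina peaks, and numbers are score percentiles. At LHY the long IonPGM peak stands at 98.8 and the Illumina peaks at 15.6 and 2.13.

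The other genes with several members had separate pairs of peaks. ACR1, an ACT domain repeat gene, stood at 87.8 (IonPGM) and 84.4 (Illumina) in one segment and at 18.8 and 17.1 in the other. CAT6, a cationic amino acid transporter gene, stood at 89.7 and 84.3 and at 71.0 and 52.4. AT1G79120 had one segment at 90.9 and 94.1 and one at 88.0 and 29.0, PSAF had a second one at 58.9 and 15.7, and SAG20, a senescence-associated gene, had its pair at 35.1 and 47.9 and at 11.5 and 2.34. AT3G41762, in a gene-poor bin of chromosome 3, was the reverse of the long IonPGM calls: 1 Illumina peak at 92.5 met IonPGM peaks at 77.3 and 63.0.

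The largest differences between percentiles all had IonPGM as the higher list. They were the second LHY segment (98.8 against 2.13), the second CAB1 segment (92.5 against 0.474), AT1G04000 (92.0 against 2.08), the second STZ segment (96.7 against 8.80) and LHB1B2. At AT1G04000 the IonPGM peak was 452 bp wide and the Illumina peak 220 bp, the smallest width among Illumina peaks of shared segments. The IonPGM minus the Illumina percentile ranged from -83.0 to 96.7 points.

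Members lay a median of 543 bp from the nearest end of their gene (quartiles 325 and 882.5 bp, largest 3177 bp). Within 500 bp of an end were 142 of 303, and 63 lay more than 1000 bp from both ends. The median IonPGM percentile was 70.3 at 200 to 300 bp (n = 60), 66.0 to 500 bp (n = 82), 70.9 to 1000 bp (n = 98) and 48.1 beyond (n = 63). The median Illumina percentile was 63.4, 46.0, 42.1 and 52.4 in the same classes. The lists stood farthest apart between 300 and 1000 bp, where IonPGM peaks over 600 bp made up 30.5% and 31.6% of members, against 8.33% nearer to the end and 12.7% farther in.

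**Figure D5:**
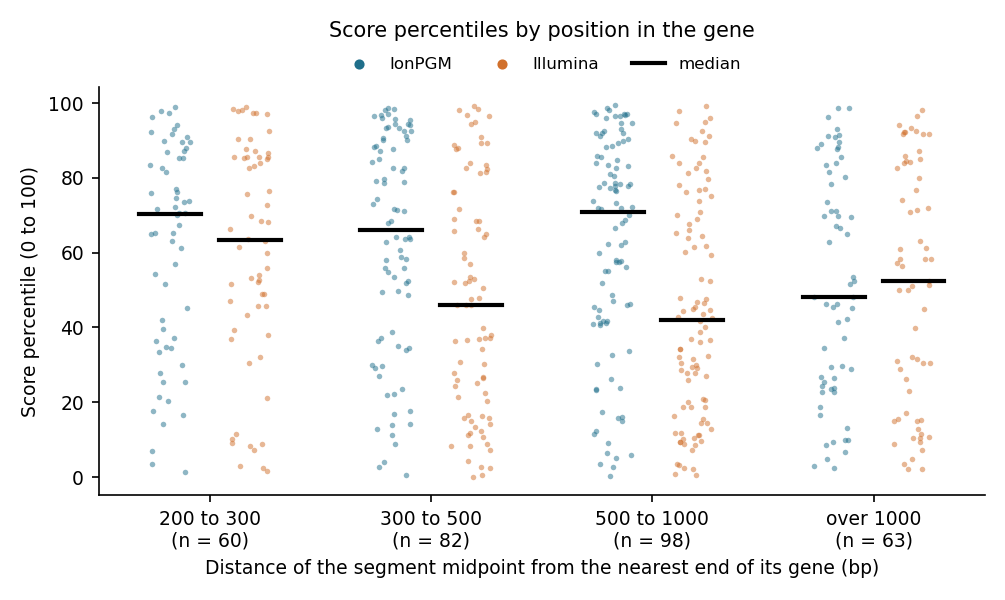
Score percentiles (y axis, 0 to 100) of the 303 members by distance of the segment midpoint from the nearest gene end (x axis, in bp), with IonPGM in blue, Illumina in orange and medians as black bars. The medians are 70.9 and 42.1 at 500 to 1000 bp and 48.1 and 52.4 beyond 1000 bp.

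Many members also touched the end window of a second protein-coding gene. This held for 132 of 303 (43.6%, interval 37.9 to 49.4%), and these had median percentiles of 66.8 (IonPGM) and 48.4 (Illumina). The 171 without such a neighbour had medians of 66.5 and 49.9, and 20.5% of them had an IonPGM peak over 600 bp, against 25.8% of the 132. Of the members up to 300 bp from an end 63.3% had such a neighbour, and of those over 1000 bp away 9.52%. Binding at the end of a neighbour and binding within the gene cannot be told apart for the 132.

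A shared segment at their own ends was about as frequent in the host genes as in all genes. Of 287 hosts 18 (6.27%) also had a shared segment centred at an end, against 4.82% of all genes, a share near the background. One of them was LHCB4.1, whose inner segment stood at 4.02 (IonPGM) and 8.94 (Illumina). Host genes had a median length of 2371 bp, against 2078 bp for all protein-coding genes, and the rule needs a gene longer than 400 bp. Segments overlapped an annotated non-coding gene in 12 members (3.96%), against 10.4% of all shared segments, 10 of them at long non-coding RNA genes. The rule places every midpoint inside a protein-coding gene, so this lower share may follow from the choice.

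Peaks inside genes that were found by IonPGM alone ranked lower than the members. The 582 IonPGM peaks of this kind had a median percentile of 27.7 and a median width of 271.5 bp, against 66.5 and 334 bp in the members. The 246 Illumina peaks inside genes without an IonPGM partner had medians of 26.1 and 246 bp, against 49.0 and 321 bp. Members were chosen for being called in both lists, so these differences may follow from that choice. Whether they are particular to peaks inside genes was not tested.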

How the data were processed

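Chromatin immunoprecipitation sequencing of CCA1-FLAG was analysed from 1 library per sequencer. Per the submitters' processing notes, Bowtie 0.12.7, SAMtools 0.1.18, MACS2 and the TAIR10 build were used; the sources used here give no threshold, control or filter. Each deposited list gives peak positions, called per sample, and 1 score per peak by the authors, of unstated scale. Scores were ranked within each whole list, and depth is unknown.

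Starts were taken as 0-based and are printed 1-based. Gene positions came from a RefSeq table on TAIR10.1, whose nuclear sequences are those of TAIR10; none is printed, and organelles were left out. Gene-poor bins are stretches of 100 kb with at most 6 protein-coding genes. Intervals are exact binomial at 95% and cover counting error only. No sequence was used here, so the planned motif searches were not run.

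The members, the 17 lists (347 distinct genes, 29 symbols placed by locus by hand) and all comparisons were chosen with earlier results of these data known. Named were the 12 highest members by mean percentile, hosts with 2 or more members, up to 4 members per list, the 3 widest segments, the 5 largest differences and segments at the distance limit; the other photosystem members, LHCB4.1 among them, were named after their values were seen. Alternatives changed the overlap, position, score, region and width rules. The code was checked on simulated peaks. Python 3.11.15, NumPy 2.4.6, pandas 2.3.3, SciPy 1.17.1 and Matplotlib 3.10.9 were used.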

Additional observations from a re-analysis of the deposited data

How the results depend on the processing

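Of 63 recomputed values (7 results under 9 alternatives, the one without light harvesting and Calvin cycle genes chosen after seeing the data), 45 stayed within 1.5 times the count or within the 95% interval of the share or median. With 50% of both peaks overlapping, members were 16.6% of shared segments, with a median Illumina percentile of 61.0 and a median segment width of 256 bp. Limits of 100 and 500 bp from the gene ends gave shares of 25.6% and 10.7% and median distances of 401 and 854 bp, and 161 members at 500 bp. With both percentiles above 50 there were 110 members (15.4%), median percentiles of 83.1 (IonPGM) and 84.1 (Illumina), a median width of 325 bp, a median distance of 439.5 bp and 1.85% of hosts with an end segment. Without segments at another gene's end there were 171 members (11.4%) at a median distance of 712 bp. The percentile, distance and neighbour rules change these values by their construction. The evening element alternatives were not run, since no sequence was used here. No paired analysis was possible because each sequencer has 1 library, and no library could be left out. Depth is unknown, so no limit of detection can be given.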

Other observations

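Further gene families held members, and they were picked after their values were seen, so their counts support nothing beyond these peaks. A shared segment lay inside 3 of 8 genes of photosynthetic electron carriers, against 1.05% of all genes: PETE2, a plastocyanin gene, at 94.2 (IonPGM) and 13.4 (Illumina), and the ferredoxin genes FD1 at 94.5 and 52.3 and FD2 at 79.2 and 37.3. Of 10 photorespiration genes 2 held one, GLDP1, a glycine decarboxylase gene, at 84.8 and 13.0, and AGT1, an aminotransferase gene, at 9.32 and 51.4. The S-adenosylmethionine decarboxylase genes of polyamine synthesis had one in 2 of 4, SAMDC1 at 97.1 and 73.8 and SAMDC2 at 89.3 and 9.39, under IonPGM peaks of 1182 and 1216 bp. The CYP86A genes, fatty acid hydroxylases of cutin and suberin synthesis, had one in 3 of 5, and CYP86A4 had the highest IonPGM percentile of them, at 89.0, with 14.9 in the Illumina list.

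In the following families of regulators the IonPGM peak of each member was between 202 bp (BBX14) and 499 bp (GRF8) wide. This does not hold for regulator genes in general: LHY (1519 bp), MYC2 (1012 bp) and STZ (758 bp) had wider ones. Over all protein-coding genes 1.05% held a shared segment inside. Of 12 growth-regulating factor genes and genes of their GIF coactivators, which promote leaf growth, 3 held a segment: GIF1 at 69.8 (IonPGM) and 84.0 (Illumina), GRF3 at 59.9 and 78.0 and GRF8 at 68.0 and 59.3. Of 5 BT scaffold protein genes 2 held one, BT4 at 88.0 and 97.4 and BT2 at 73.7 and 28.6. In the SAC51 family of bHLH genes it was 2 of 4, SAC51 at 63.7 and 81.6 and SACL1 at 34.1 and 64.2. Of 30 B-box genes 3 held one inside (10%), BBX14, BBX27 and BBX17, and 8 had one at an end, against 4.82% of all genes. Of 71 WRKY genes 3 held one inside (4.23%), WRKY7 at 77.1 and 68.4, WRKY11 at 70.6 and 37.9 and WRKY23 at 36.3 and 8.38.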
